A study of Mus musculus with 29 samples.

Results

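Expression was compared between OFF bipolar cells (OFF-BC) and blue cones in 6 of the 15 RNA-seq libraries of the series, 3 libraries from each population, across all 24062 genes of the table. The OFF-BC libraries came from *Otx2*-GFP+/-; *Grm6*-YFP+/+ mice at postnatal day 43, 48 and 42, with the retinas of a male and a female pooled in each. In these mice GFP is inserted at the end of a single allele of *Otx2*, so the cells carry this modified allele, and ON bipolar cells (ON-BC) are labelled by a transgene with YFP under *Grm6* promoter control. OFF-BC were collected as GFP-positive, YFP-negative cells and sorted a second time at once. The blue cone libraries came from *Nrl*-eGFP; *Nrl*-/- mice at postnatal day 56, were sorted once on eGFP driven by *Nrl*, and belong to an earlier study of the same laboratory. Without *Nrl*, cells that would have become rods take on a blue cone-like identity, so these libraries are a surrogate for native blue cones. Cell class, genotype, age, study, number of sorts and sequencing depth differ together in this comparison and cannot be told apart. In bulk libraries, fewer cells of a type and less RNA per cell cannot be told apart either.

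Cones and bipolar cells are sister classes of retinal neuron, both dependent on the homeodomain factors *Otx2* and *Crx*. A cone absorbs light with an opsin, shuts its cyclic nucleotide-gated channels through transducin and phosphodiesterase, and thereby releases less glutamate from its ribbon synapse. OFF-BC read that glutamate with ionotropic receptors of the AMPA and kainate families and pass the signal to ganglion cells, also from a ribbon synapse, under inhibition by GABA and glycine from amacrine cells. The comparison therefore asks how expression differs between a surrogate for cones and a class of neuron that cones contact directly.

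Counted reads were 12329548 to 14633867 for the OFF-BC libraries and 24174923 to 26266746 for the blue cones. Values below are normalized counts, that is, reads divided by 1 size factor per library, which were 0.832 to 0.906 for OFF-BC and 1.32 to 1.35 for blue cones. Replicates of a population correlated at 0.972 to 0.981 across genes. Nothing in the labels says whether the 3 blue cone libraries came from separate animals, so p-values measure the spread between libraries. *Nrl*, the disrupted gene, stood at a mean of 14181 in wild-type rods, at 657, 764 and 486 in the 3 blue cone libraries and at 14.5, 22.8 and 24.3 in OFF-BC, which matched the labels. The rod libraries came from mice at postnatal day 56.

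The given markers followed the labels. *Grik1* (chr16:87895901-88290863; coordinates are GRCm38), the kainate receptor subunit of OFF-BC, reached 50164, 37690 and 28558 in the 3 OFF-BC libraries and 345, 378 and 432 in the blue cones. *Esam* (chr9:37528089-37538319), a cell adhesion molecule known from endothelium and found in OFF-BC, reached 14204, 12160 and 13199 against 34.6, 59.9 and 118. The populations did not overlap for either gene, and the log2 fold changes (OFF-BC minus blue cones ± SE, n = 3 and 3) were 6.62 ± 0.45 for *Grik1* (limma adjusted p = 9.5e-09) and 7.69 ± 0.44 for *Esam* (adjusted p = 8.5e-10). *Opn1sw* (chr6:29376671-29380513), the short-wavelength opsin, stood at 4477, 4314 and 55813 in OFF-BC and 1108400, 1302200 and 1256100 in blue cones. *Gnat2* (chr3:108086788-108101432), the alpha subunit of cone transducin, stood at 16557, 13813 and 21002 against 143490, 161910 and 184500. Both cone genes were lower in every OFF-BC library, by -6.89 ± 0.64 (adjusted p = 4.2e-07) and -3.27 ± 0.15 (adjusted p = 1.3e-09) on the log2 scale. OFF-BC replicate 3 held 12.7 times as much *Opn1sw* as the mean of the other OFF-BC libraries, and without it the log2 fold change was -8.12. In the wider marker lists 9 of 10 OFF bipolar, 5 of 7 pan-bipolar and 5 of 8 ON bipolar genes were higher in OFF-BC than in blue cones, and 9 of 10 cone and 8 of 11 rod genes were lower. These shares compare with 21.8% of all genes tested that were higher and 13.7% that were lower.

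The 250 bases upstream of the RefSeq start are shown for the cone genes of the given markers, whose ATAC-seq signal is given below. For *Grik1* and *Esam* no promoter sequence was available. *Opn1sw* (chr6:29380514-29380763, minus strand) and *Gnat2* (chr3:108092816-108093065, plus strand) read 5′ to 3′ as follows, with capitals marking the homeodomain motifs TAATCC (K50, bound by CRX and OTX2) and TAATTA or TAATTG (Q50) on either strand.
*Opn1sw*: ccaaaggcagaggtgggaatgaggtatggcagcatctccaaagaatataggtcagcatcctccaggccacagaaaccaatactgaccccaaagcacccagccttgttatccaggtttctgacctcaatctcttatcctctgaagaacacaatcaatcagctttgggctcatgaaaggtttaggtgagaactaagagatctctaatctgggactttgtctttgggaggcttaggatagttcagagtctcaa
*Gnat2*: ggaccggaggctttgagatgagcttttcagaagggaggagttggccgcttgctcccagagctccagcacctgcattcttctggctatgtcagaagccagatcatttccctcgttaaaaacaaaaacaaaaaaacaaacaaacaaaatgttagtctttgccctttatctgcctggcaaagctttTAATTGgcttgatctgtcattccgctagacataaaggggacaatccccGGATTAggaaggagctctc
The *Gnat2* stretch held a K50 motif on the minus strand starting 19 bases and a Q50 motif starting 67 bases before the start, and these letters were not found in the *Opn1sw* window. The window of *Lamp5*, a gene higher in OFF-BC (below), is not shown. It held a K50 motif starting 53 bases before the start. That of *Mrap2*, also higher in OFF-BC, held neither motif. Over the 13348 RefSeq promoters available, from 10432 of the 14024 genes tested, 5.27% held the K50 and 6.63% the Q50 letters.

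Of the 14024 genes tested, 4975 (35.5%) differed between OFF-BC and blue cones by more than 2-fold (limma treat, adjusted p under 0.05), 3052 (21.8%) higher and 1923 (13.7%) lower in OFF-BC. Of the higher genes 10 were set aside because rods expressed them over 16-fold above blue cones and at least 4-fold above OFF-BC, which left 3042 higher genes, or 61.3% of the 4965. Scaling each library to its total reads instead moved the median of all genes from 0.14 to 0.42 (log2) and the higher share to 71.8%, and under the other alternatives the share was 55.9% to 62.1%. The changes were large on both sides: 360 genes were over 64-fold higher and 124 over 64-fold lower. At 256-fold the numbers were 56 and 21. The 95% interval of the fold change lay within 2-fold in either direction for 4033 genes.

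**Figure D1:**
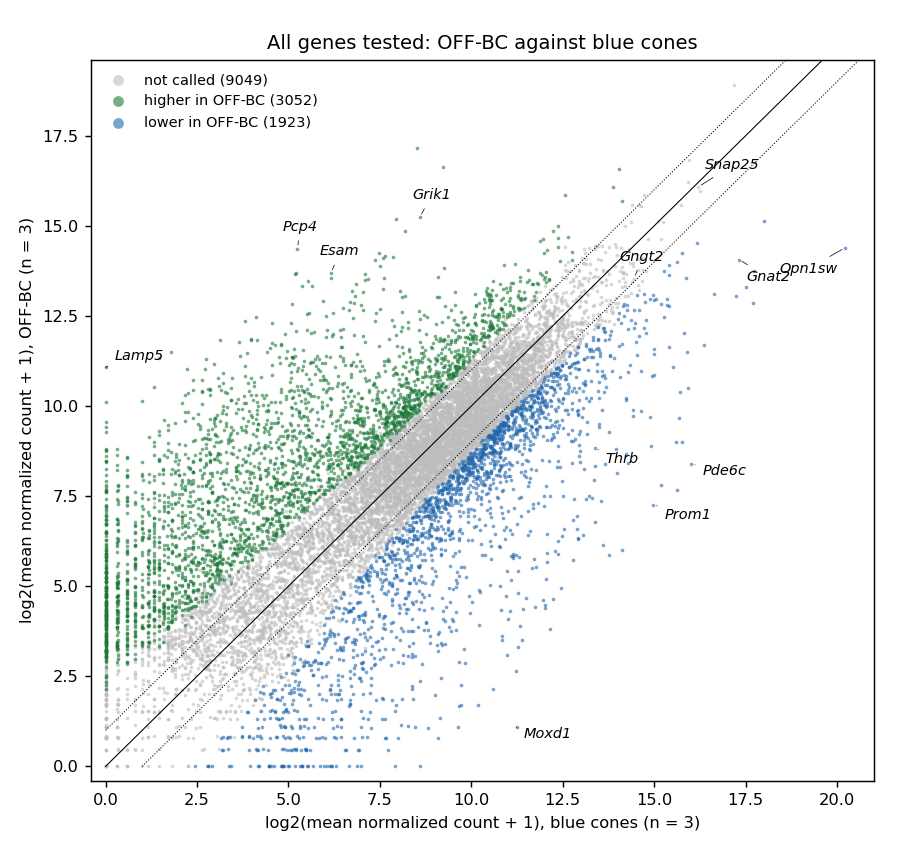
Log2 of the mean normalized count plus 1 of the 14024 genes tested, blue cones on the horizontal and OFF-BC on the vertical axis, each mean over 3 libraries, with a point per gene with called genes in colour. The solid line marks equal values and the dotted lines a 2-fold difference, and *Grik1*, *Esam* and *Lamp5* lie far above the lines and *Opn1sw*, *Pde6c* and *Moxd1* far below.

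The 12 called genes furthest above blue cones with a mean of at least 200 follow. *Lamp5* (chr2:136052025-136069917), a neuronal relative of the lysosomal membrane proteins, had 1603, 2695 and 2176 normalized counts in OFF-BC and no read in any blue cone library, which puts it at least 2859-fold higher (against 3 reads over the 3 libraries). *Tacr3*, the receptor for neurokinin B, had 1800.5, 2749 and 1734 against 0, 0 and 11.1. *Mal2*, a protein of raft-mediated transport, had 2647, 4358 and 1631 against 0, 0 and 7.4. In all 3 genes the lowest OFF-BC library was far above the highest blue cone library. *Mrap2*, an accessory protein of melanocortin receptors, had 2773, 2695 and 2291 against 3.76, 1.52 and 0. *Grin2b*, a subunit of NMDA receptors, had 1997, 682 and 666 against no read, so at least 1498-fold higher. The sodium channel gene *Scn1a* had 578, 805 and 481, again against no read, so at least 821-fold higher. The remaining genes of the 12 were *Ppp1r17*, *Lrrc3b*, *Cnnm1*, *Pcp4*, *4921511H03Rik* and *BC030500*, with log2 fold changes of 9.71, 9.47, 9.41, 9.14, 9.46 and 9.41. *Pcp4*, a regulator of calmodulin, was the most abundant of the 6 by normalized count, at 22611, 18169 and 22662 against 32.3, 31.1 and 47.4.

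Some of these genes were called between OFF-BC and ON-BC and others were not. Between OFF-BC and ON-BC 919 genes (6.55%) were called by the same test. *Pcp4* averaged 14084 in ON-BC and the OFF-BC minus ON-BC difference was 0.58 ± 0.15 on the log2 scale (adjusted p = 1), and for *4921511H03Rik* it was 0.93 ± 0.39 (adjusted p = 1). *Tacr3*, at 13.1 in ON-BC, differed by 7.60 ± 0.81 (adjusted p = 1.4e-05), and *Lamp5*, at 43.9, by 5.56 ± 0.36 (adjusted p = 1.2e-07). *Scn1a*, at 287, differed by 1.11 ± 0.37 (adjusted p = 1) and did not pass. The OFF-BC libraries enter both comparisons.

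**Figure D2:**
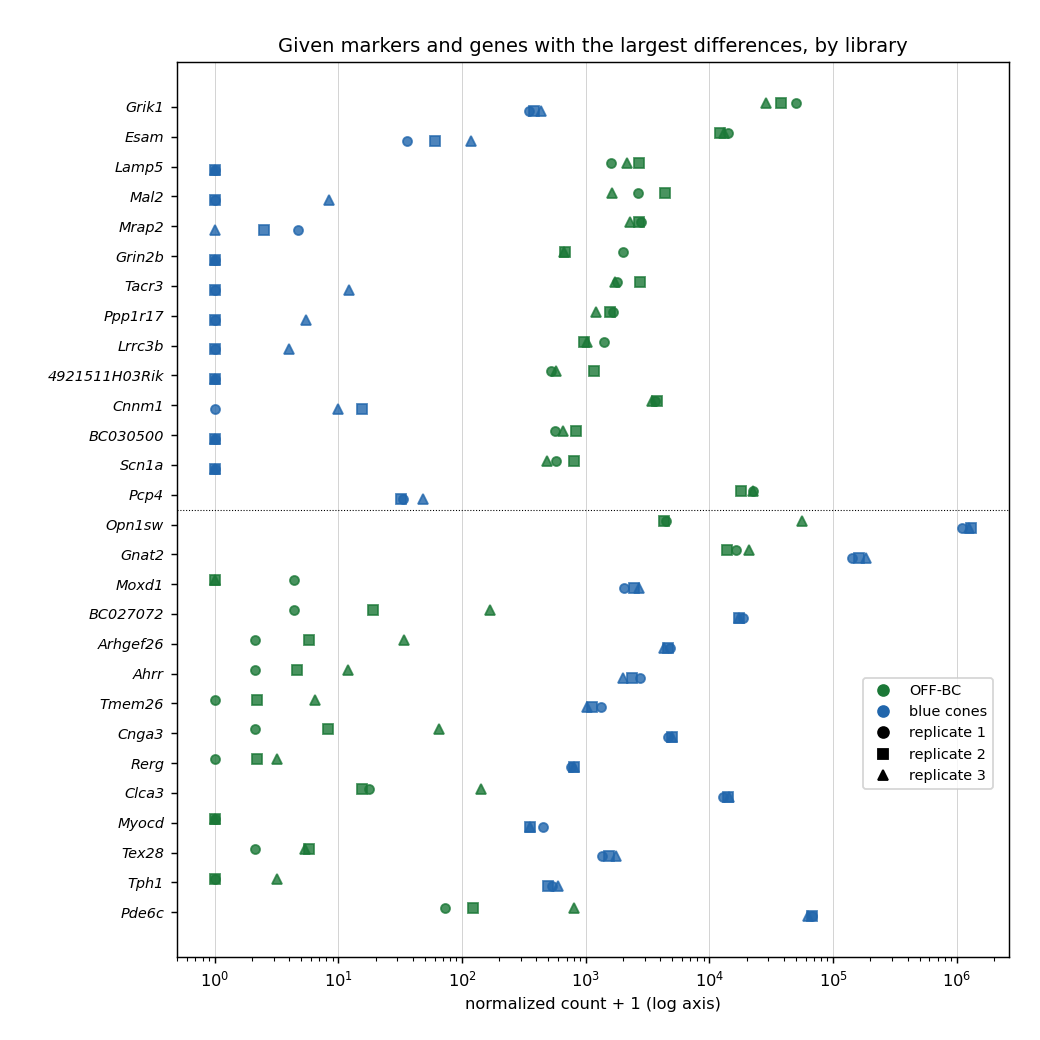
Normalized count plus 1 (log axis) in each library for the given markers and the genes with the largest differences, with colour for the population and shape for the replicate number. Genes above the dotted line are higher in OFF-BC. Every gene shown separates the 3 OFF-BC from the 3 blue cone libraries, and OFF-BC replicate 3 is the highest of its group for the cone genes *Opn1sw*, *Gnat2*, *Cnga3* and *Pde6c*.

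At the other end stood genes high in blue cones, of which some were low and others high in rods. No RNA-seq library was of native cones. For genes low in rods a trait of cones and an effect of *Nrl* loss cannot be told apart. *Moxd1* (chr10:24223517-24302783), a monooxygenase of the dopamine beta-hydroxylase family, had 2051, 2470 and 2713 normalized counts in blue cones and 3.35, 0 and 0 in OFF-BC, a ratio of 2118-fold (95% counting interval 724 to 10271). *Cnga3*, a subunit of the channel that is open in darkness, had 4631, 4943 and 4963 against 1.12, 7.21 and 64. *Pde6c*, the catalytic subunit of cone phosphodiesterase, had 67873, 68112 and 62615 against 71.5, 121 and 810.0. For both channel and phosphodiesterase the highest OFF-BC value was that of replicate 3, and the log2 fold changes of -8.86 and -8.42 were -10.18 and -9.46 without it. *Myocd*, a coactivator of serum response factor known from muscle, had 447, 356 and 352 in blue cones and no read in OFF-BC, so was at least 338-fold lower there. *Tph1*, an enzyme of serotonin synthesis, had 536, 495 and 598 against 0, 0 and 2.21. *Rerg*, a Ras-like GTPase, had 758, 808 and 805 against 0, 1.2 and 2.21. Rods had means of 14.3, 1.67, 4.76 and 7.52 for *Moxd1*, *Myocd*, *Tph1* and *Rerg*, far from the blue cone values. By contrast, *BC027072*, the guanine nucleotide exchange factor gene *Arhgef26* and *Ahrr*, a repressor of the aryl hydrocarbon receptor, had rod means of 21339, 5019 and 3955 beside blue cone means of 17832, 4571 and 2377, and log2 fold changes in OFF-BC of -9.53, -9.25 and -8.91 (-10.94, -10.35 and -9.56 without OFF-BC replicate 3). *BC027072* may be an older symbol of *Pcare*, which encodes a protein of the outer segment cilium, and it is not among the list members counted below. *Tmem26*, *Clca3* and *Tex28* completed the 12, at -8.89, -8.66 and -8.58, of which *Tmem26* and *Clca3* stood at -9.60 and -9.70 without OFF-BC replicate 3.

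The stretches upstream of *Moxd1* (chr10:24223267-24223516, plus strand) and *Arhgef26* (chr3:62338527-62338776, plus strand) are shown as a gene high in blue cones and low in rods and a gene high in both. Neither window held the K50 or Q50 letters, so no base is in capitals.
*Moxd1*: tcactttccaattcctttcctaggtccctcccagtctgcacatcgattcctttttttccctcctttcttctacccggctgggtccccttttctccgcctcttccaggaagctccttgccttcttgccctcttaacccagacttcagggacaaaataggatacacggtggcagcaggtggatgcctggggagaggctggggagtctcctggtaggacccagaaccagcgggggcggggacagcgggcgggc
*Arhgef26*: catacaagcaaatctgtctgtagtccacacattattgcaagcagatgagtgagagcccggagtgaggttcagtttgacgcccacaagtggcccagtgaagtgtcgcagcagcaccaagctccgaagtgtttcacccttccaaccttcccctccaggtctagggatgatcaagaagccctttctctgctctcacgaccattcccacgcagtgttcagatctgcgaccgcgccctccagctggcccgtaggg
Motif shares of higher and lower genes are not compared here, because promoters were available for only 10432 of the 14024 genes tested (74.4%).

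Cone transcripts in OFF-BC were uneven between libraries. As a percentage of the blue cone mean, the median over 10 cone genes was 0.957, 1.86 and 8.80 in OFF-BC replicates 1, 2 and 3. In replicate 3, 6 of the 10 genes exceeded the mean of replicates 1 and 2 by more than 3-fold. The excess was 15.4-fold for *Cnga3*, 12.7-fold for *Opn1sw*, 8.85-fold for *Pde6h*, 8.40-fold for *Pde6c*, 7.50-fold for *Arr3* and 4.83-fold for *Kcne2*. It was only 1.62-fold for *Opn1mw*, 1.38-fold for *Gnat2*, 1.32-fold for *Gngt2* and 1.13-fold for *Cngb3*. For the latter 3 genes all OFF-BC libraries held a sizeable level: *Gngt2*, the gamma subunit of cone transducin, stood at 54.7%, 40.6% and 63.0% of the blue cone mean, *Gnat2* at 10.1%, 8.46% and 12.9%, and *Cngb3*, the beta subunit of the cone channel, at 8.05%, 6.90% and 8.42%. *Kcne2* was not particular to cones in these data. ON-BC replicates 1, 2 and 3 held 68.1%, 58.9% and 62.0% of its blue cone mean, and OFF-BC 3.0%, 4.2% and 17.4%.

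The other marker lists moved with replicate 3 to different degrees. Of 11 rod genes 2 exceeded 3-fold in replicate 3, with a median excess of 1.33-fold over the list, of the 10 OFF bipolar genes 0 did (median 0.965-fold), and of the 8 ON bipolar genes 3 did (median 1.61-fold). The ON-BC gene *Grm6* was at 145, 64.9 and 593 and *Isl1* at 343, 162 and 1329, highest in replicate 3. The summed level of the 10 cone genes was 2170 to 7083 reads per 1000000 counted reads in OFF-BC, 84398 to 91539 in blue cones and 733 to 787 in ON-BC. *Kcne2*, high in ON-BC, is part of this sum. What part cone cells or cone RNA in the sort had in these values was not tested.

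Leaving out replicate 3 changed few calls. Without it, 4572 of the 4975 genes were called again, 172 lower and 231 higher genes lost the call, 70 lower and 45 higher genes gained it, and 0 turned direction. Among the 1923 lower genes replicate 3 was the highest OFF-BC library in 752 (39.1%), and in 32.5% of all genes tested. *Pttg1*, the securin of mitosis, was among the lower genes that gained the call, with 19, 6.01 and 1129 in OFF-BC and 1443, 1905 and 1650.5 in blue cones. In replicate 3 it stood near the blue cone values, unlike most of the cone genes above. Its log2 fold change was -4.94 ± 1.70 (limma adjusted p = 0.052) with all libraries and -7.13 (adjusted p = 0.0022) without replicate 3. In the other direction *Klk1b22*, a kallikrein, at 3.35, 15.6 and 128 against no read in blue cones, was higher with all libraries (adjusted p = 0.0083) and not called without replicate 3 (adjusted p = 0.062).

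Other single libraries also moved fold changes of named genes, all of which kept their direction. Of 166 called genes that were named, 57 moved by over 1.5 times when at least 1 of the 6 libraries was left out, 19 of them over 2-fold. OFF-BC replicates 1, 2 and 3 did so for 14, 8 and 25 genes and blue cone replicates 1, 2 and 3 for 16, 11 and 18. Those moved over 2-fold by a blue cone library, in genes with few blue cone reads, were *Cnnm1* (8.20 without blue cone replicate 1), *Grm7* (6.13 without replicate 2), *Lhx3* (5.95 without replicate 2), *Mal2* (11.38 without replicate 3) and *Tacr3* (11 without replicate 3).

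**Figure D3:**
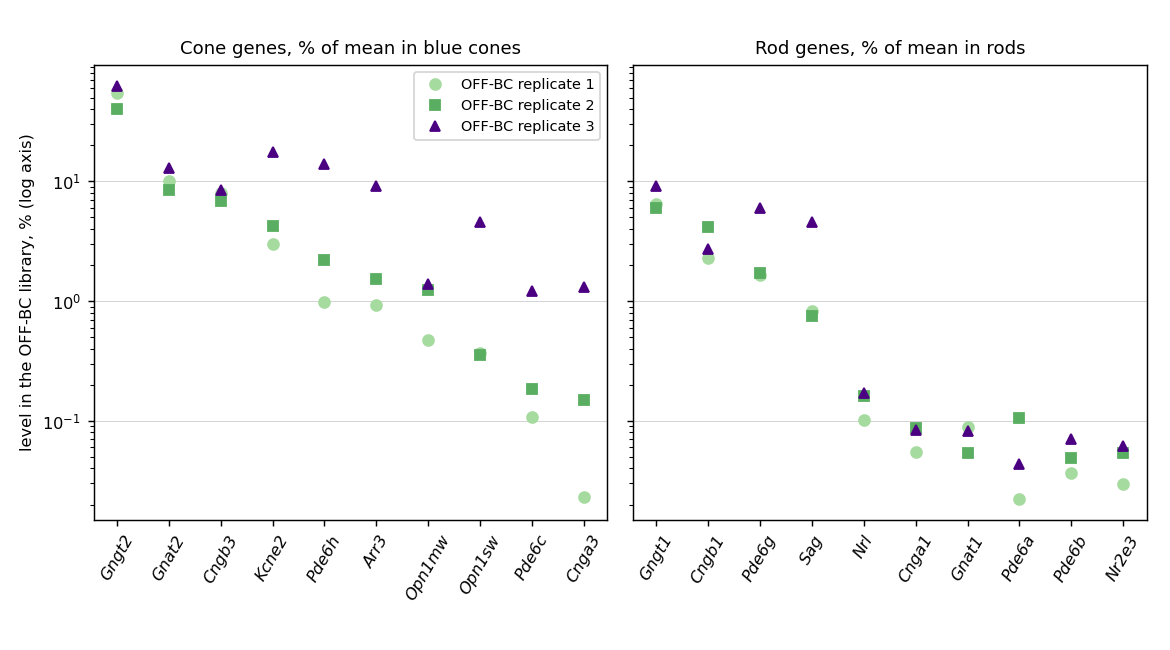
Level of the 10 cone genes as a percentage of their mean in blue cones (left) and of 10 of the 11 rod genes as a percentage of their mean in rods (right), a point for each OFF-BC library on a log axis. *Gngt2*, *Gnat2* and *Cngb3* lie close together in all 3 OFF-BC libraries, whereas *Opn1sw*, *Cnga3*, *Arr3*, *Pde6c* and *Pde6h* are well above the other libraries in replicate 3, as are the rod genes *Sag* and *Pde6g*.

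The cone phototransduction cascade was lower in OFF-BC at nearly every step. Of 22 genes tested, 19 (86.4%) were lower and 1 was higher, with a median log2 fold change of -4.99 against 0.14 for all genes, and the same 19 to 1 count stood without replicate 3. The 1 higher gene was *Gucy2f*, a guanylate cyclase of rods and cones, at 199, 334 and 178 against 30.8, 28.8 and 13.3, but rods averaged 5039.6 and it is among the 10 genes set aside. *Opn1mw*, the medium-wavelength opsin, had 237, 619 and 691 in OFF-BC against 41111, 50465 and 58221 in blue cones (-6.73 ± 0.30, adjusted p = 5.7e-11). *Guca1a* and *Guca1b*, which activate the cyclase when calcium falls, differed by -5.02 and -6.09 (-6.15 and -7.42 without OFF-BC replicate 3), and *Arr3*, cone arrestin, by -5.40. The smaller called differences were those of *Gucy2e* (-1.86), the cyclase itself, and *Rgs9bp* (-2.11), which anchors the transducin GTPase activator. *Gngt2* and *Gnb5*, the beta subunit that accompanies RGS9, did not pass, at -0.91 ± 0.18 (adjusted p = 1) and -1.12 ± 0.13 (adjusted p = 0.4). *Gngt2*, *Gnat2* and *Cngb3* were at the same time higher in OFF-BC than in ON-BC, by 3.32 ± 0.18 (adjusted p = 1.0e-07), 2.37 ± 0.15 (adjusted p = 4.9e-06) and 1.79 ± 0.15 (adjusted p = 0.0011).

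Structural genes of the outer segment and its cilium were likewise lower. Of 19 tested, 17 were lower and none was higher (median -4.63), the same counts as without replicate 3. *Prom1*, needed to form the discs, had 54.8, 85.3 and 318 in OFF-BC and 32303, 33686 and 30752 in blue cones (-8.13 ± 0.42, adjusted p = 2.9e-10). *Impg1*, of the matrix between photoreceptors, and *Tulp1*, of ciliary transport, differed by -7.55 and -7.38. Without OFF-BC replicate 3 the values of *Prom1*, *Impg1* and *Tulp1* were -8.86, -8.53 and -8.29. *Rpgr*, which is mutated in X-linked retinitis pigmentosa, had 683, 973 and 819 against 1091, 731 and 721 and a log2 fold change of -0.03 ± 0.16 with a 95% interval of -0.37 to 0.32, and its sign turned with the scaling. The rod channel gene *Cngb1*, at 1.31, did not pass. Genes that handle retinoid were mixed, with 5 of 13 (38.5%) lower and 2 (15.4%) higher, against 13.7% and 21.8% of all genes tested. *Rbp3*, the retinoid-binding protein of the space around outer segments, had 11295, 8316 and 10863 against 181500, 182360 and 194510 (-4.21 ± 0.16, adjusted p = 5.2e-11), and the dehydrogenase genes *Rdh8* and *Rdh12* differed by -5.41 (-6.20 without OFF-BC replicate 3) and -2.72. *Dhrs7* was higher in OFF-BC, by 1.59, and *Rdh13* at -0.74 did not pass.

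The ionotropic glutamate receptors had the highest median of the lists in the plot of list shares. Of 23 ionotropic receptor and auxiliary subunit genes tested, 19 (82.6%) were higher in OFF-BC and none was lower, with a median of 5.72, and 18 were higher without replicate 3. Beside *Grik1*, the kainate receptor auxiliary subunit *Neto1* had 225, 659.6 and 463 against no read in blue cones, at least 592-fold. The AMPA receptor subunit *Gria4* had 653, 732 and 563 against 0, 3.79 and 2.96 (7.92 ± 0.62, adjusted p = 4.2e-08), and *Shisa9*, an AMPA receptor auxiliary protein, had 315, 362 and 148 against 0, 0 and 2.96. The AMPA subunits *Gria1*, *Gria2* and *Gria3*, the kainate subunits *Grik2* and *Grik5* and the NMDA subunits *Grin1* and *Grin2b* were higher as well. *Cnih2*, at 1.76 (adjusted p = 0.067, called without blue cone replicate 1), *Grin3a*, *Grin2d* and *Grin3b* did not pass. *Neto1* averaged 4.07 in ON-BC and differed from it by 6.40 ± 0.41 (adjusted p = 8.0e-08).

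Metabotropic signalling genes, most of them known from the ON-BC cascade, were also higher in OFF-BC than in blue cones, 12 of 15 tested with 2 lower (median 3.90). *Grm7*, a presynaptic receptor, had 531, 699 and 557 against 3.76, 0 and 14.1 (7.16 ± 0.69, adjusted p = 5.9e-07). *Gng13*, *Pcp2* and *Nyx*, which serve the ON-BC cascade, had log2 fold changes of 6.49, 5.93 and 4.92 against blue cones and of -1.81, -2.48 and -2.55 against ON-BC, of which that of *Pcp2* passed (adjusted p = 3.1e-04) and those of *Gng13* and *Nyx* did not (adjusted p = 0.11 and 0.068). *Grm6*, the receptor of that cascade, did not pass against blue cones (0.61 ± 0.55, adjusted p = 1). The summed level of 8 ON bipolar genes in OFF-BC, 815 to 1161 reads per 1000000, lay between blue cones (44.7 to 72.0) and ON-BC (7949 to 9526), and its part in the results for this list was not tested. *Grm8*, an autoreceptor, and *Lrit3*, a leucine-rich repeat protein of the photoreceptor to ON-BC synapse, were lower, at 11.2, 9.61 and 17.7 against 545, 396 and 419.7 and 4.47, 2.4 and 28.7 against 593, 494 and 543. The log2 fold change of *Lrit3* was -6.05, and -6.97 without OFF-BC replicate 3.

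Receptors for GABA and glycine and chloride transporters formed a list in which 13 of 22 genes tested were higher and none lower (median 2.74), with 13 also without replicate 3. *Glra1*, a glycine receptor subunit, had 2670.1, 2159 and 2042 against 8.27, 3.04 and 8.88 (8.31 ± 0.44, adjusted p = 3.4e-10). The GABA-A receptor subunits *Gabrb1* and *Gabrb2* differed by 8.14 and 7.27. *Gabrr1*, of the GABA-C receptors of bipolar terminals, had 20011, 15701 and 15236 in OFF-BC, 135, 171 and 190.2 in blue cones and a mean of 16483 in ON-BC. *Slc12a5*, the KCC2 transporter that keeps intracellular chloride low, had 8473, 9601 and 10553 against 1412, 1574 and 1554 (2.65 ± 0.10, adjusted p = 2.8e-10).

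The ribbon synapse list was mixed, with 17 of 44 genes higher, 5 lower and 10 within 2-fold by their interval (median 0.89). The shares were 38.6% higher and 11.4% lower, against 21.8% and 13.7% of all genes tested. Both cell types release glutamate from ribbons. The 17 include *Sv2c*, one of the genes set aside. Calcium entry and vesicle priming genes stood among the higher: *Cacna1d*, a calcium channel, had 884, 877 and 804 against 6.77, 5.31 and 9.62 (6.73 ± 0.30, adjusted p = 5.6e-11), *Cadps* had 12550, 14830 and 11233 against 105, 105 and 194, and the synaptotagmin gene *Syt4* had 33188, 26246 and 29459 against 247, 302 and 324. *Rimbp2*, which links calcium channels to the active zone, had 129.7, 129.8 and 88.3 against 0, 0 and 0.74. In all of these the populations stood far apart. The lower genes were *Cabp4*, which tunes the calcium channel of photoreceptor terminals (-6.03, and -6.86 without OFF-BC replicate 3), *Cplx4*, a complexin of the ribbon synapse (-3.80), the vesicle protein gene *Sv2b* (-2.76), the phosphatase gene *Ppef2* (-2.45) and the glutamate transporter gene *Slc1a2* (-1.47). *Snap25*, of the fusion machinery, had 78675, 62889 and 65694 against 65143, 77078 and 83713 and a 95% interval of -0.60 to 0.35, and *Ctbp2*, which encodes the ribbon protein RIBEYE, had 12075, 9648 and 9982 against 10453, 10609 and 10432, with an interval of -0.22 to 0.23. The sign of *Snap25* turned with scaling to total reads.

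Electrical genes were mostly higher. Of 45 HCN, sodium and potassium channel genes tested 30 were higher, *Kcnj14* of the set-aside genes included, and 5 lower (median 4.13), and 28 and 4 without replicate 3. *Scn3a* had 1171, 1396 and 1230.4 against 4.51, 1.52 and 4.44 (8.22 ± 0.52, adjusted p = 3.0e-09). *Hcn3*, a channel opened by hyperpolarization, had 3505, 2814 and 3575 against 23.3, 21.2 and 27.4, and the potassium channel gene *Kcna3* differed by 7.16. *Kcnv2*, the modulatory subunit of the photoreceptor inner segment potassium current, was lower, at 168, 298 and 278 against 10642, 10381 and 10645. *Kcnab1* (-2.24) and *Scn4a* (-1.91) were also lower, though *Scn4a* was not called without OFF-BC replicate 3 or blue cone replicate 1.

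Genes of adhesion and wiring formed a long higher list, 53 of 73 tested with 3 lower (median 3.77), and axon guidance genes were higher in 28 of 47 and lower in 4 (median 2.04). *Lrrtm3*, a synaptic adhesion protein, had 4220.2, 3472 and 2889 against 24.1, 5.31 and 5.18 (8.46 ± 0.70, adjusted p = 6.4e-08) and averaged 80.1 in ON-BC (5.44 ± 0.70, adjusted p = 1.6e-04). The protocadherin gene *Pcdh7*, the receptor phosphatase gene *Ptprd* and the cadherin gene *Cdh10* had log2 fold changes of 8.41, 8.06 and 7.83. *Elfn1*, which photoreceptors use to contact bipolar dendrites, was lower in OFF-BC, at 0, 2.4 and 25.4 against 546, 651 and 414 (-6.88 ± 0.76, adjusted p = 2.9e-06, and -8.16 without OFF-BC replicate 3), and *Lrfn2* and *Dscaml1* differed by -2.80 and -2.29. Among guidance genes, *Epha3* had 4439, 4008 and 2768 against 8.27, 1.52 and 34.8, *Slit2* 7966, 12513 and 10167 against 17.3, 19.7 and 82.9, and *Plxna4* 1198, 1372 and 1385 against 2.26, 4.55 and 4.44. Their family members went both ways: *Slit3*, which averaged 151 in ON-BC, had 2.24, 0 and 2.21 in OFF-BC and 90.3, 65.3 and 99.2 in blue cones.

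**Figure D4:**
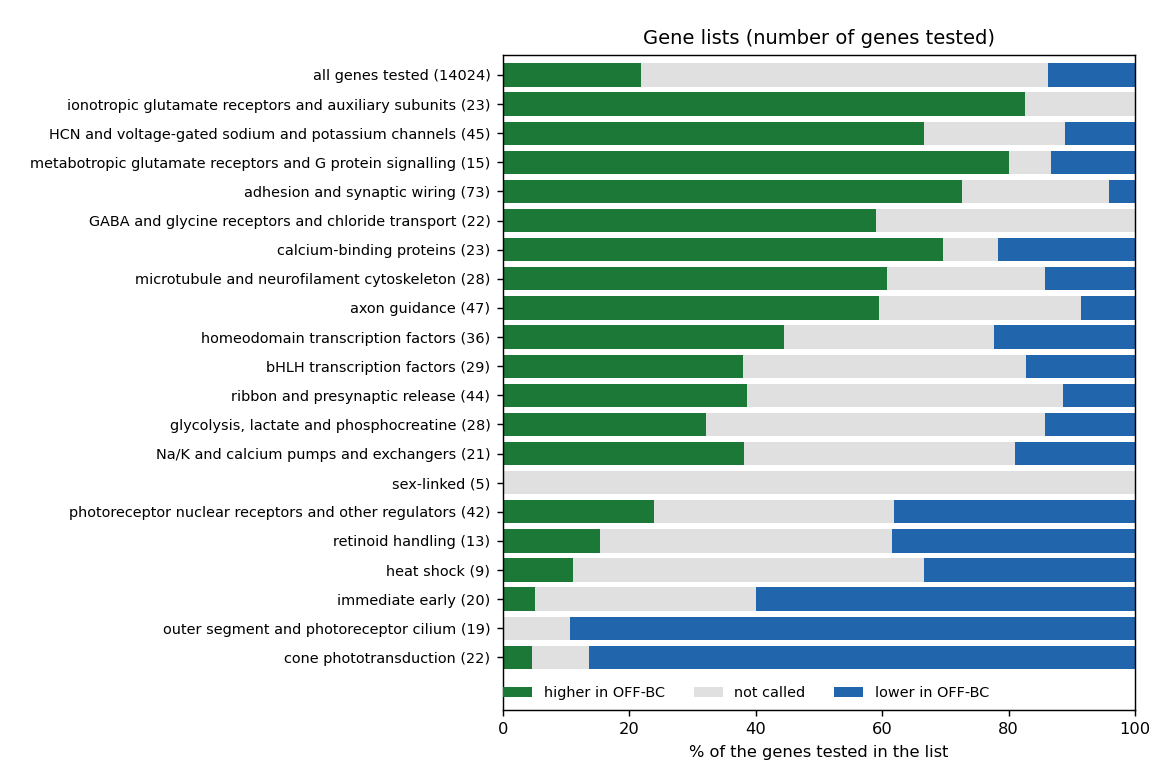
Share of the genes tested in each list, in percent, that were called higher in OFF-BC (green), not called (grey) or called lower (blue), with the number of genes tested in brackets and lists ordered by their median fold change. Of all genes 21.8% were higher and 13.7% lower, of the ionotropic glutamate receptor list 82.6% were higher, and of the cone phototransduction list 86.4% were lower.

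Transcription factors went both ways in each list. In the homeodomain, bHLH and regulator lists 44.4%, 37.9% and 23.8% were higher and 22.2%, 17.2% and 38.1% lower. Of all genes tested 21.8% were higher and 13.7% lower. Of 36 homeodomain factors 16 were higher and 8 lower (median 1.39; 14 and 8 without replicate 3), of 29 bHLH factors 11 were higher and 5 lower (median 0.96), and of 42 nuclear receptors and other regulators of photoreceptors 10 were higher and 16 lower (median -0.70). *Irx6*, a factor of OFF-BC, had 6414, 7249 and 6644 against 43.6, 79.7 and 142 and a mean of 134 in ON-BC (5.67 ± 0.38 from ON-BC, adjusted p = 1.8e-07). *Lhx3*, *Zfhx4* and *Lhx4* had log2 fold changes of 7.32, 7.26 and 3.94. *Irx5* had 76, 126 and 146 against no read, at least 154-fold. *Crx*, which drives photoreceptor genes, was lower but present, at 8031, 5770.5 and 7668 against 39867, 43789 and 40567 (-2.55 ± 0.14, adjusted p = 5.0e-08). *Otx2*, of which a single allele carries GFP in the OFF-BC mice, was at 12264, 10858 and 11908 against 6538, 7419.7 and 7143 and did not pass (0.73 ± 0.10, adjusted p = 1). *Pbx3* had 13.4, 3.6 and 87.2 against 2104, 2322 and 2070.2, with a log2 fold change of -6.91 and of -8.05 without OFF-BC replicate 3, and *Meis1* and *Rax* were lower, at -4.12 and -4.65.

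Among bHLH factors, *Bhlhe22* had 218, 524 and 391 against 0, 0 and 1.48, and *Neurod4* had 16052, 15160 and 12181 against 445, 565 and 832 (4.59 ± 0.22, adjusted p = 3.2e-10). *Bhlhe23* had log2 fold changes of 6.36 against blue cones and -2.20 against ON-BC, the latter given without its test. *Neurod1*, which photoreceptors need to survive, was lower at -1.79 ± 0.15 (adjusted p = 1.8e-04). *Bhlhe41* was at 15921, 15408 and 11329 against 11077, 11899 and 9583 and did not pass. *Fezf2*, a zinc finger factor, had 2687, 2331 and 2567 in OFF-BC, 2.26, 6.83 and 8.14 in blue cones and a mean of 15.2 in ON-BC, with differences of 8.68 ± 0.35 (adjusted p = 1.7e-11) and 7.29 ± 0.35 (adjusted p = 2.9e-09). *Ebf1*, *Tbx2* and the nuclear factor I genes *Nfia*, *Nfib* and *Nfix* were higher, at 6.83, 6.70, 4.07, 4.67 and 4.58. *Prdm1*, which restrains bipolar genes in developing photoreceptors, had 4.47, 2.4 and 15.4 against 2090.1, 1876 and 2019 (-8.21 ± 0.62, adjusted p = 2.2e-08, and -8.85 without OFF-BC replicate 3). *Rxrg* and *Thrb*, nuclear receptors that set cone opsin choice, had 17.9, 9.61 and 150.1 against 4179, 4430 and 4260.3 and 412, 565 and 378 against 11923, 10299 and 9546. *Samd7*, *Casz1* and *Ankrd33* were lower, at -7.21, -6.41 and -6.46. Without OFF-BC replicate 3 *Rxrg*, *Casz1* and *Ankrd33* stood at -8.24, -7.20 and -7.37.

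Calcium-binding proteins and the cytoskeleton differed member by member. Of 23 calcium-binding genes 16 were higher and 5 lower (median 2.68). *Kcnip4*, *Vsnl1*, *Kcnip3* and *Hpca* had log2 fold changes of 7.22, 7.17, 7.12 and 6.04, and *Rcvrn* (recoverin), *Guca1a*, *Guca1b*, *Hpcal1* and *Cabp4* were lower. *Cabp5*, a marker of bipolar cells including OFF types, had 66995, 54422 and 56401 in OFF-BC and as much as 25242, 29460 and 27000 in blue cones (1.12 ± 0.17, adjusted p = 0.52), and it did not pass. Of 28 cytoskeletal genes 17 (60.7%) were higher and 4 (14.3%) lower (median 2.64), against 21.8% and 13.7% of all genes tested. The stathmin genes *Stmn4* and *Stmn1*, the tubulin gene *Tubb4a* and the growth cone gene *Gap43* had log2 fold changes of 8.64, 7.06, 6.52 and 6.02. *Map1b*, a microtubule-associated protein, had 9362, 7885 and 8181 against 176120, 146640 and 144560 (-4.20 ± 0.16, adjusted p = 4.7e-11), and *Map2*, *Dclk1* and *Dpysl3* were lower too, while *Mapt* (tau) was higher at 5.95.

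Energy and ion transport lists showed isoform differences. Of 28 glycolytic, lactate and phosphocreatine genes 9 (32.1%) were higher and 4 (14.3%) lower (median 0.45). Of all genes tested 21.8% were higher and 13.7% lower, so the lower share was near that of all genes. Hexokinase 2 (*Hk2*) had 620.3, 532 and 1644 in OFF-BC and 23715, 27431 and 25187 in blue cones (-4.96 ± 0.30, adjusted p = 4.6e-09). The lactate carrier gene *Slc16a7* had 6403, 4865 and 4544 against 11.3, 15.9 and 11.8 (8.55 ± 0.43, adjusted p = 1.7e-10), while the carrier gene *Slc16a1* had 249, 335 and 313 against 3163, 3555 and 3728. *Pdk1* was higher and *Pdk3* lower, by 4.15 and -2.86. *Pkm*, *Ckb* and *Aldoa* were at -0.31, 0.28 and 0.88 and did not pass. Of 21 pump and exchanger genes 8 (38.1%) were higher and 4 (19.0%) lower (median 0.44). The exchanger genes *Slc24a3* and *Slc24a2* went opposite ways, at 3906, 3902 and 4389.6 against 29.3, 23.5 and 34 and 401, 405 and 646 against 3637, 2984 and 2704, and *Atp1b2*, a beta subunit of the sodium pump, had 45466, 30009 and 32557 against 236400, 282690 and 271920 (-2.89 ± 0.23, adjusted p = 1.5e-06).

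Immediate early genes were mostly lower in OFF-BC, 12 of 20 with 1 higher (median -2.12), and 10 and 1 without replicate 3. *Egr1* had 171, 161 and 139 against 3236, 2931 and 4758 (-4.50 ± 0.77, adjusted p = 6.8e-04), and *Nr4a1* had 72.6, 62.5 and 161 against 1646, 2049 and 2283. ON-BC, sorted once from the same line at the same ages, averaged 1566 for *Egr1* and 1995 for *Nr4a1*, and the OFF-BC minus ON-BC differences were -2.50 ± 0.77 (adjusted p = 0.36) and -4.19 ± 0.49 (adjusted p = 1.3e-04). *Dusp1*, a phosphatase that ends MAP kinase signals, was the 1 higher gene, at 1.90, and was not called without OFF-BC replicate 1 or blue cone replicate 1 or 2. Of 9 heat shock genes 3 were lower, *Hspa1a* (-4.36), *Hsph1* (-2.40) and *Hspa5* (-1.98), and *Hspe1* was higher (2.92). These are 33.3% and 11.1% of the list, against 13.7% lower and 21.8% higher of all genes tested. Of 5 sex-linked genes none was called by limma, edgeR or DESeq2 and 0 had an unadjusted limma p under 0.05. *Xist* stood at 3059, 4217 and 3626 against 1071, 684 and 174, so the populations did not overlap. The sex of the blue cone mice is not given here, and its part was not tested. The number of sorts differs between the populations, and its part was not tested.

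Among markers of other retinal cells, those of Müller glia had the highest sums in both populations, and the rest were low. The Müller glia sums in ON-BC and rods were 425 to 483 and 116 to 176 reads per 1000000 counted reads. Summed levels, in reads per 1000000 counted reads, were 546 to 781 in OFF-BC and 762 to 896 in blue cones for 8 Müller glia genes, 56.4 to 75.1 and 70.5 to 88.0 for 7 amacrine genes, 3.81 to 6.34 and 7.80 to 11.2 for 7 ganglion cell genes, and 3.96 to 13.7 and 21.2 to 44.5 for 6 microglia genes. For the 4 horizontal cell, 7 endothelial, 6 pigment epithelium and 5 red blood cell genes the highest library in either population reached 6.00, 4.74, 1.41 and 3.16. None of the 6 microglia genes was called by limma or DESeq2, 2 had an unadjusted limma p under 0.05, and edgeR called 5 of them. *Slc17a6*, *Pou4f2* and *Pou4f3* of ganglion cells, *Cdh5* and *Tie1* of endothelium, *Rpe65* of the pigment epithelium and the 4 globin genes had no read in any OFF-BC library. Of the amacrine genes *Tfap2b*, *Gad2*, *Pax6* and *Gad1* were higher in OFF-BC and *Slc6a9* lower, with OFF-BC means of 212, 22.5, 184, 27.7 and 566 against 6.22, 0, 16.6, 1.98 and 1476.

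Chromatin accessibility at promoters was read from ATAC-seq libraries of the same populations, 2 each, as the normalized count in the strongest region of 200 bp within 1000 bp before to 100 bp after a RefSeq start. With 2 libraries in each population no test was made. The OFF-BC libraries came from postnatal day 42 and 46 and the blue cone libraries from day 56, so age differs with population here too. Of the genes tested 11268 had such a region, and both OFF-BC libraries were above both blue cone libraries in 29.1% of them and below in 45.7%. Among 264 genes whose RNA was over 64-fold higher both were above in 236 (89.4%), with a median log2 difference of 2.75 against -0.19 for all genes. Among 99 genes whose RNA was over 64-fold lower both were below in 81 (81.8%), with a median of -1.32. Genes called higher or lower at any size had medians of 0.32 and -0.36.

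Single promoters showed the range of this relation. *Grik1* had 63.3 and 84.7 in OFF-BC and 0 and 0 in blue cones, and *Lamp5* had 91.6 and 88.6 against 2.59 and 1.45. *Nrl* had 25.6 and 53.5 against 649 and 494, and *Myocd* had 31 and 12.7 against 315 and 301. The blue cone mice also carry eGFP driven by *Nrl*, and its part in the *Nrl* values was not tested. The promoters of *Opn1sw* and *Gnat2*, whose sequences stand above, were open in both, at 112 and 106 against 242 and 221 and 56.6 and 89.6 against 249 and 239, and those of *Moxd1* at 45.8 and 35 against 167 and 129. Some differences in RNA had no such counterpart: *Rerg* had 136 and 151 against 124 and 99, *Rxrg* 33.7 and 17.5 against 27.2 and 23.1, and *Irx6* 28.3 and 35 against 67.3 and 48.4.

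**Figure D5:**
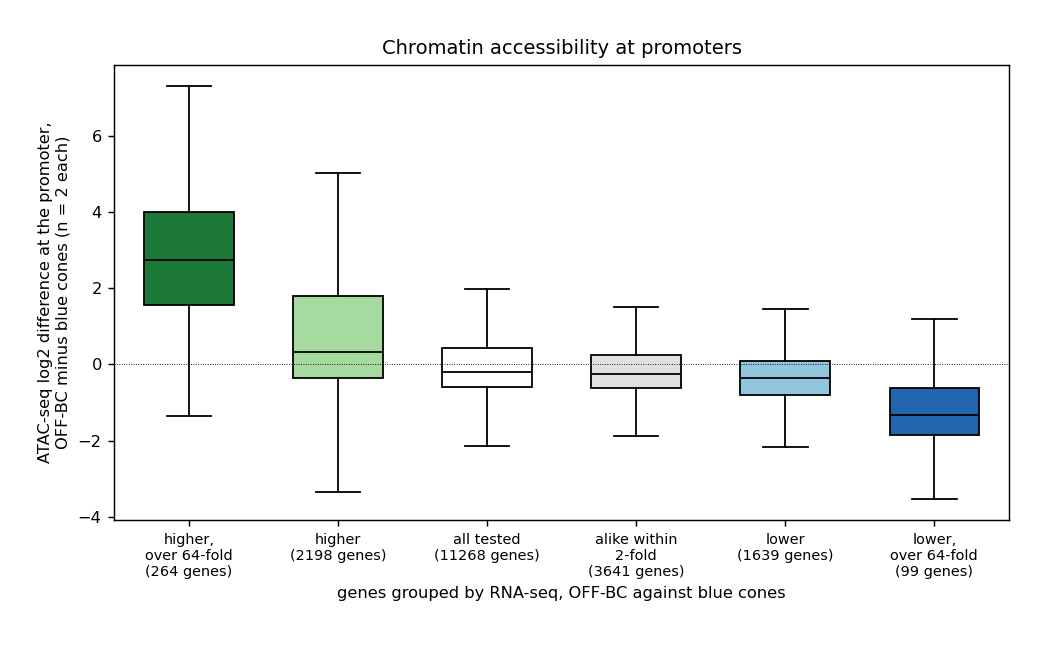
Difference in ATAC-seq signal at the promoter (OFF-BC minus blue cones, log2 of the value plus 1, means of 2 libraries each) for genes grouped by their RNA-seq difference. Boxes span the quartiles around the median line, whiskers reach the furthest gene within 1.5 box lengths, and genes beyond are not drawn. The medians run from 2.75 for genes over 64-fold higher in RNA to -1.32 for genes over 64-fold lower.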

How the data were processed

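RNA-seq was analysed in 3 OFF-BC and 3 blue cone libraries, with the other 9 RNA-seq libraries of the series in the same model. The authors aligned the reads to GRCm38/mm10 with STAR 2.7.0d, used HTSeq for counts of RefSeq genes and deposited normalized signal: each count divided by 1 size factor per library, as were the ATAC-seq signals in regions of 200 bp. All 230384 RNA-seq and 406354 ATAC-seq values above 0 were whole multiples of 1 step per library (tolerance 0.01 of a read), and the reads were recovered from these steps.

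Genes were kept by filterByExpr of edgeR 4.0.16 (14024 of 24062). Log2 of the normalized count plus 1, which understates changes of genes with few reads, was fitted for all 15 libraries by population with limma 3.58.1 (R 4.3.3), and the treat test (trended prior) asked whether a change exceeded 2-fold. Benjamini-Hochberg adjusted p-values over the genes tested were called under 0.05. OFF-BC against blue cones and, for genes named, OFF-BC against ON-BC were compared. edgeR and DESeq2 1.42.0 on the recovered reads were used as alternatives. The procedure was tested on simulated data.

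The members and gene lists were chosen with earlier results of these data known. Genes named were the given markers, the 12 largest called changes in each direction with a mean of at least 200, per list up to 4 called genes in each direction with a mean of at least 50 and the uncalled gene with the highest mean, the 10 most abundant alike genes, the 10 whose call turned on OFF-BC replicate 3, transcription factors over 3 in log2 fold change, and *Nrl*. Other list members were named after their values were seen. Some genes that the rule named are not reported here. *Pcare* matched no name in the table. Folds against a population without a read used 3 reads over its libraries. Intervals and floors cover counting error only. Counts made without strand cannot tell overlapping genes apart, and the strand setting is not given in the sources used here. Replicate numbers did not pair the OFF-BC and blue cone libraries (correlations of deviations -0.020, -0.040 and 0.064). Size factors, tests, filters, pseudocounts and replicates were varied. Per-sample columns of other populations in the ATAC-seq table, 8 in all, and the peak lists were not used. Sequences are from RefSeq, GRCm38.p6.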

Additional observations from a re-analysis of the deposited data

Results flagged for a closer look

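Some genes differed from blue cones to unlike degrees in OFF-BC and ON-BC. They were picked out by the test of OFF-BC against ON-BC, which equals the difference between the contrasts of OFF-BC and ON-BC with blue cones. A gene that passed can still differ from blue cones in the same direction in ON-BC. Of the given markers, the OFF-BC minus ON-BC log2 difference was 6.35 for *Grik1*, 7.89 for *Esam*, 3.96 for *Opn1sw* and 2.37 for *Gnat2*. The last 2 of these are cone genes, lower in OFF-BC than in blue cones and higher in OFF-BC than in ON-BC. Among the genes furthest above blue cones it was 5.56 for *Lamp5*, 5.07 for *Mal2*, 3.9 for *Mrap2*, 7.6 for *Tacr3*, 5.41 for *Ppp1r17*, 2.82 for *Lrrc3b*, 3.8 for *Cnnm1* and 6.47 for *BC030500*. Among those furthest below it was 3.06 for *Pde6c*, with ON-BC at a mean of 23.4 and OFF-BC at 71.5, 121 and 810.0. All 13 passed limma's test with adjusted p under 0.05 in the model of 15 libraries, and 11 did in the 6 OFF-BC and ON-BC libraries alone, where *Opn1sw* and *Pde6c* did not. Groups of 3 libraries were too small to be searched for single outlying values.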

How the results depend on the processing

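Between 3979 and 5734 genes were called under every alternative but the test against no change with a fold of at least 2, which called 7219, with 4261 higher and 2958 lower genes. edgeR called 5734, DESeq2 4755, TMM scaling 4980 the fit of the 6 libraries alone 4659 and the filter of at least 50 reads in every library of 1 population 3979 of 11274 tested. Scaling to total reads gave 71.8% higher genes (3638 higher and 1430 lower), and TMM, edgeR and the filter of 50 reads gave 58.0%, 57.2% and 55.9%. Leaving out 1 library in turn gave 4638 to 4820 called, 2857 to 2995 higher, 1767 to 1841 lower, 61.1% to 62.1% higher and 3728 to 3915 alike genes. With the replicate number as a block, which did not pair the libraries, 4922 genes were called, 3022 higher and 1900 lower (61.4% higher), and 3981 were alike. OFF-BC and ON-BC share numbers and ages, and same-numbered libraries correlated in their deviations at -0.0763, 0.222 and -0.0649. By alternatives chosen after seeing the data, 919 genes differed between them with a replicate block as without, 969 in the fit of those 6 libraries alone and 945 with the block there. *Opn1sw*, *Pde6c*, *Opn1mw* and *Scn4a* lost that call with the 6 libraries alone, and *Nfib* as well with the block.

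Of 166 called genes among the 200 named, 160 kept call and direction in every alternative, 6 lost the call in at least 1 (*Scn4a*, *Unc5b*, *Dusp1*, *Klk1b22*, *AW011738* and *Ebf2*) and 0 turned. *Unc5b* lost it under the replicate block too. Genes near 0 changed sign. With scaling to total reads the log2 fold changes were 0.26 for *Rpgr*, 0.17 for *Snap25*, 0.10 for *Map4*, 0.12 for *Rn45s*, 0.155 for *Ywhae*, 0.12 for *Pea15a* and 0.004 for *Aplp2*. *H3f3b* was at -0.07 with TMM and -0.072 with edgeR. Leaving out 1 library in turn gave -0.15 to 0.17 for *Rpgr*, -0.39 to 0.067 for *Rn45s*, -0.068 to 0.068 for *H3f3b* and -0.25 (without OFF-BC replicate 3) to 1.33 for *Grm6*. The causes were not tested. For 5 named genes DESeq2 gave no adjusted p. edgeR gave no intervals, hence no count of alike genes.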

Other observations

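The most abundant genes called higher in OFF-BC lay outside the rule for named genes and were picked after their values were seen. *Gsg1*, a membrane protein gene first described in germ cells, had 173610, 130900 and 132600 normalized counts in OFF-BC and 162, 305 and 636 in blue cones (8.83 ± 0.36, limma adjusted p = 1.7e-11), and averaged 7118 in ON-BC (4.37 ± 0.36 from ON-BC, adjusted p = 2.9e-06). *Scgn*, which encodes the calcium-binding protein secretagogin, had 107690, 96679 and 99299 against 429, 560.0 and 802 (7.45 ± 0.24, adjusted p = 1.6e-12), and its difference from ON-BC was 1.74 ± 0.24 (adjusted p = 0.05). The granin gene *Scg2* and the mitochondrial protein gene *Mgarp* had log2 fold changes of 3.30 and 2.57 against blue cones, with ON-BC means of 54307 and 115340 beside OFF-BC means of 59606 and 97458.

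Among the most abundant blue cone transcripts that were lower in OFF-BC, *Gnb3*, the transducin beta subunit that ON-BC use as well, had 14021, 8977 and 18240 in OFF-BC, 218450, 218350 and 209510 in blue cones and a mean of 92915 in ON-BC. OFF-BC were lower than both, by -4.03 ± 0.23 (adjusted p = 4.4e-09) and -2.81 ± 0.23 (adjusted p = 1.8e-05). *Sag*, rod arrestin, which *Nrl*-/- photoreceptors also express, had 2955, 2678 and 16458 against 160730, 225780 and 252590 (-5.37 ± 0.47, adjusted p = 3.2e-07).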
